A study of Mus musculus with 16 samples.

Results

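A group of 10 genes of the FoxO and energy stress response was followed through 8 mouse tissues in the fed and the fasting state. They comprised 3 FoxO transcription factors (Foxo1, Foxo3 and Foxo4), 4 genes that act on energy stress and TORC1 (Depp1, Ddit4, Sesn1 and Sesn3) and 3 genes of growth arrest (Cdkn1a, Gadd45b and Gadd45g). These 10 genes, of 55385 in the count table, were chosen with the fasting against fed fold changes of these libraries in view, where Depp1 and Ddit4 had the largest upward fold changes in muscle among the 7768 genes that reached 10 counts per 1000000 counts (CPM) there. The fold changes of the 10 genes are therefore given as a description and carry no test.

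Muscle, liver, white and brown adipose tissue, heart, spleen, kidney and lung came from male C57BL/6 mice that were acquired at 12 weeks of age and given at least 10 to 14 days to acclimatize. Mice of the Fed group had free access to food, and mice of the Fasting group were without food for 24 h. Tissue of 3 mice was pooled in each group, so each tissue and treatment has 1 strand-specific library, 16 in all, with no replicate error, and no allele or drug differed between the groups. All tissues of a treatment derive from the same pool of mice.

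FoxO factors are the transcription factors that insulin switches off. Insulin signalling through PI3-kinase activates Akt, which phosphorylates FoxO proteins and keeps them out of the nucleus, so that FoxO targets are read when insulin is low, as in fasting. Among the known targets are genes that slow growth and save energy: Ddit4 (also called REDD1) and the sestrins restrain TORC1, the kinase complex that drives protein synthesis, Depp1 acts on autophagy, and Cdkn1a and the Gadd45 genes hold the cell cycle. The glucocorticoid receptor and p53 also control several of these genes. The transcript of a FoxO factor does not report where its protein is.

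Levels are given as counts per 1000000 counts of the library (CPM), and fold changes as the log2 ratio of fasting to fed CPM after adding 0.01 CPM to both. A gene was taken as past the fold when this log2 value was above 1 in size. Library totals lay between 14245178 and 36069968 counts, and 3 counts corresponded to 0.0832 to 0.211 CPM. The lowest count of any of the 10 genes was 9, and 135 of their 160 values were at 10 CPM or more, where the 95% exact binomial (Clopper-Pearson) interval had a half-width of at most 14.9% of the value. These intervals cover counting error only. In bulk tissue, a change in the number of cells of a type and a change in RNA per cell cannot be told apart.

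In the fasting libraries the 10 genes were mostly higher. Of the 80 pairs of a gene and a tissue, 66 were higher and 14 lower in the fasting library, 35 were past the fold upward and 0 downward, and the other 45 lay between. In 8 of the 80 pairs the counting interval of the log2 fold change included 0. Skeletal muscle had 7 of the 10 genes past the fold, against a background of 2.99% of its measured genes higher and 5.7% lower. Brown adipose tissue had 6 (background 3.84% higher and 6.39% lower) and heart 6 (3.48% and 3.92%). White adipose tissue had 4, beside a background of 12.4% higher and 3.32% lower, the widest upward background of the 8 tissues, and had 2 when libraries were scaled by edgeR's TMM factors or DESeq2's size factors in place of their totals. Kidney had 4 (1.86% and 2.03%). Liver had 3 (3.64% and 5.72%), lung 3 (1.35% and 3.29%) and spleen 2 (1.39% and 0.962%). Because the genes were chosen on this contrast, nothing is read from these counts against their background. The pairs just inside the fold were Gadd45g and Gadd45b in white adipose tissue (1.03 and 1.04) and Gadd45g in lung (1.07), and those just outside were Depp1 in lung (0.99), Foxo3 in lung (0.89) and Sesn1 in brown adipose tissue (0.87).

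**Figure D1:**
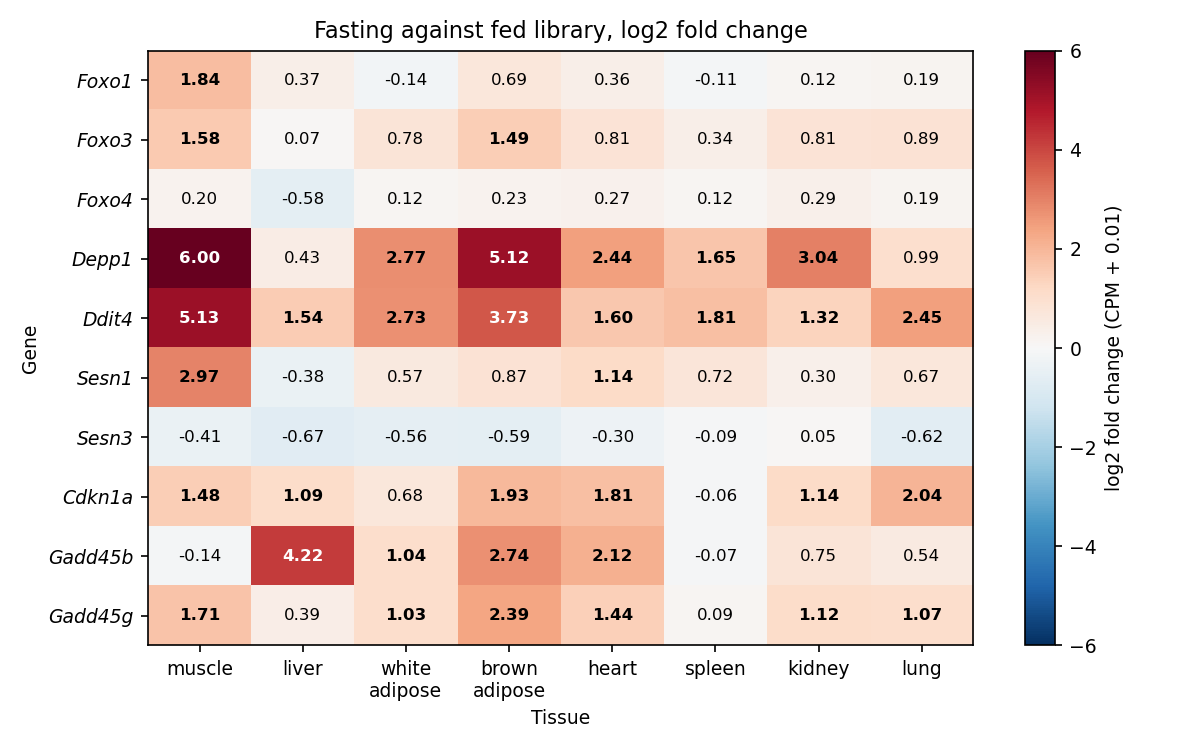
Log2 fold change of the fasting against the fed library (CPM + 0.01) for the 10 genes (rows) in 8 tissues (columns), 1 pooled library per treatment, with values past 1 in bold. Depp1 and Ddit4 in muscle and Depp1 in brown adipose tissue are the darkest cells, and Sesn3 is below 0 in 7 of 8 tissues.

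Foxo3 was higher in the fasting library of every tissue, Foxo1 had its largest fold change in muscle, and Foxo4 had the narrowest span of fold changes of the 3 factors across tissues. Foxo1, which lies on the forward strand at chr3:52268336-52353221 (GRCm38), carries much of the insulin control of glucose production in liver. Fed levels of Foxo1 were 17.1 CPM in muscle, 46.5 in liver, 138 in white adipose tissue, 93.4 in brown adipose tissue, 28.7 in heart, 174 in spleen, 50.8 in kidney and 74.9 in lung. Fasting levels of Foxo1 were 61.1 CPM in muscle, 60.1 in liver, 125 in white adipose tissue, 151 in brown adipose tissue, 36.9 in heart, 161 in spleen, 55.3 in kidney and 85.2 in lung. Spleen and both adipose tissues held the highest levels and heart and fed muscle the lowest, and the fed and fasting ranges overlapped. The log2 fold change of Foxo1 was 1.84 in muscle, a 3.57-fold difference and the only tissue past the fold, with 0.69 in brown adipose tissue and values from -0.14 to 0.37 in the other 6.

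Foxo3, on the reverse strand at chr10:42181841-42276755, is the FoxO factor best known for switching on atrophy and autophagy genes in muscle. Fed levels of Foxo3 were 37.8 CPM in muscle, 79.8 in liver, 90.4 in white adipose tissue, 38.96 in brown adipose tissue, 143 in heart, 126 in spleen, 117 in kidney and 169 in lung. Fasting levels of Foxo3 were 113 CPM in muscle, 83.6 in liver, 155 in white adipose tissue, 109.7 in brown adipose tissue, 251 in heart, 158 in spleen, 205 in kidney and 314 in lung. Muscle and brown adipose tissue had the lowest fed levels of Foxo3 and were the tissues past the fold, at 1.58 and 1.49, while lung and heart, with the highest fed levels, had 0.89 and 0.81. In liver the 2 libraries differed by 0.07 (95% counting interval -0.02 to 0.16), within counting error.

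Foxo4, on the X chromosome at chrX:101254528-101260873, is a smaller member of the family that shares the same DNA-binding domain. Fed levels of Foxo4 were 50.6 CPM in muscle, 21.4 in liver, 31.9 in white adipose tissue, 45.5 in brown adipose tissue, 25.2 in heart, 22.6 in spleen, 17.5 in kidney and 27.7 in lung. Fasting levels of Foxo4 were 58.3 CPM in muscle, 14.3 in liver, 34.7 in white adipose tissue, 53.4 in brown adipose tissue, 30.4 in heart, 24.6 in spleen, 21.3 in kidney and 31.6 in lung. Its log2 fold changes lay between 0.12 and 0.29 in 7 tissues, and only liver was lower, at -0.58. The span of its fold changes across tissues, 0.87 on the log2 scale, was less than the 1.98 of Foxo1 and the 1.51 of Foxo3.

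Levels of different genes were compared on a scale per gene length (TPM, counts per exon length scaled to the same sum in every library). It uses 1 deposited exon length per gene, whichever transcript is expressed, so the order of genes depends on that length. On this scale Foxo3 was the highest of the 3 factors in 10 of 16 libraries and Foxo1 and Foxo4 in 3 each. On CPM, which favours the long Foxo1 and Foxo3 transcripts, Foxo1 led in 5 libraries and Foxo4 in 1. Fed muscle was a Foxo4 tissue by transcript level, with 54.3 TPM of Foxo4 against 18.7 TPM of Foxo3 and 7.39 TPM of Foxo1, so that Foxo4 made up 67.6% of the sum. In the fasting muscle library Foxo4 still led at 63.8 TPM, but its share was 43.2%, as Foxo3 stood at 56.9 TPM and Foxo1 at 26.9 TPM. The summed FoxO level was 80.3 TPM in fed and 148 TPM in fasting muscle. In brown adipose tissue the leading factor was Foxo4 in the fed library (45.02%) and Foxo1 in the fasting library (36.8%). In white adipose tissue and spleen it was Foxo1 when fed (42.9% and 46.5%) and Foxo3 when fasting (45.7% and 44.96%). Foxo3 led in both libraries of liver, heart, kidney and lung, with its largest share, 71.8%, in the fasting heart.

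**Figure D2:**
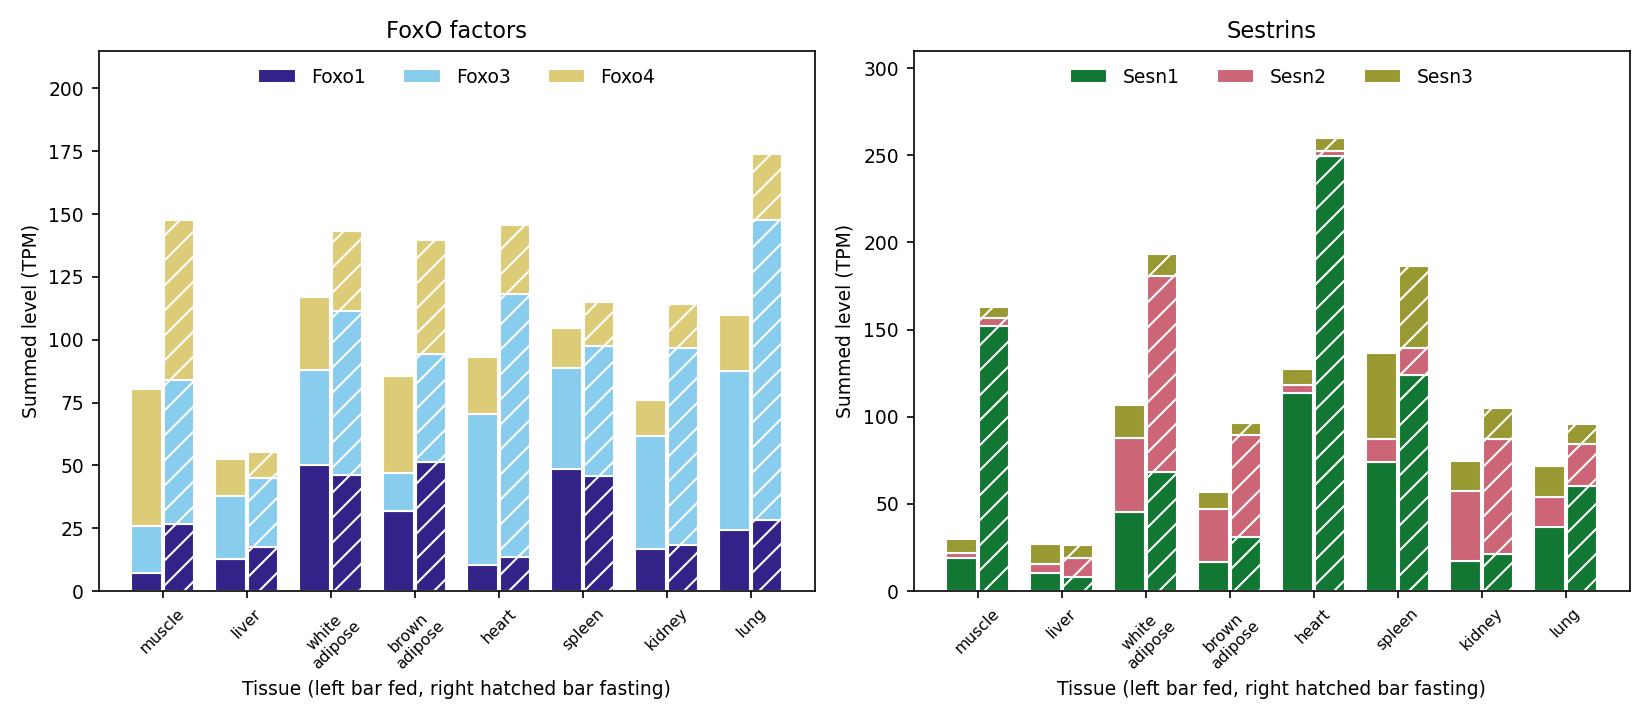
Summed level per gene length (TPM) of the FoxO factors (left) and the sestrins (right) in each tissue, 1 pooled library per bar, fed on the left and fasting (hatched) on the right. The FoxO sum in muscle goes from 80.3 to 148 TPM, and the muscle sestrin sum from 29.9 to 163 TPM, nearly all of it Sesn1.

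Depp1, a small gene on the forward strand at chr6:116650609-116652794, encodes a regulator of autophagy that was first found as a progesterone-induced transcript of the decidua and is switched on by FoxO factors. Ddit4, on the reverse strand at chr10:59949669-59951834, encodes a protein that holds back TORC1 through the TSC complex and is induced by energy stress, hypoxia, DNA damage and glucocorticoids. Their promoters are shown because these were the 2 of the 10 genes with the largest upward fold changes in muscle. Sequences run from 250 bases before to 50 bases after the RefSeq start site (GRCm38.p6), with matches to the searched letters in capitals. The promoter of Depp1 is at chr6:116650434-116650733 on the forward strand and that of Ddit4 at chr10:59951721-59952020 on the reverse strand.
Depp1: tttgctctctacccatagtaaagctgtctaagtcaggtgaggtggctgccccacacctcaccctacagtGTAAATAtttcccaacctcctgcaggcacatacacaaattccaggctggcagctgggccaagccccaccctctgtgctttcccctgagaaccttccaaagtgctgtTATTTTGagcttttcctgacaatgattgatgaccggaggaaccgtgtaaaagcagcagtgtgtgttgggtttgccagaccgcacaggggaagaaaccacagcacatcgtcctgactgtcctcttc
Ddit4: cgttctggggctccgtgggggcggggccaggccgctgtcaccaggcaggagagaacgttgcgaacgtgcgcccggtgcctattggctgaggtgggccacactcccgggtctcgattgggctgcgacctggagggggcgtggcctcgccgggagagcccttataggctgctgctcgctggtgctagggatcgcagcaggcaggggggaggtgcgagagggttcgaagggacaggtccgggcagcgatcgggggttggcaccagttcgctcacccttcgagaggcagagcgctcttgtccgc

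Each promoter was searched on both strands for the FoxO core GTAAACA and the insulin response core CAAAACA, the cyclic AMP element TGACGTCA, the ATF4 type element ATTGCATCA and the E-box CACGTG. No match of one overlapped a match of another. These letters occurred in 3.65%, 6.28%, 1.79%, 0.192% and 7.15% of all 32851 promoters in the table. In the 11 promoters found for 9 of the 10 genes (Foxo4 had no entry), GTAAACA was found in 1, CACGTG in 2 and the other 3 in 0. The Depp1 window held neither FoxO core, but held GTAAATA from 181 bases before the start and TATTTTG, the reverse of CAAAATA, from 75 bases before it. Each differs from a FoxO core by 1 letter and was searched only after the sequence was seen; they occurred in 3.04% and 4.36% of all promoters, and in no other promoter of the 10 genes. The Ddit4 window held none of these letters. Depp1 also had the lowest GC content of the 11 promoters, 51.7%, where the other 10 were above the median of 52.7% over all promoters.

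Depp1 and Ddit4 were higher in the fasting library of every tissue, with their largest fold changes in muscle. Fed levels of Depp1 were 3.78 CPM in muscle, 33.2 in liver, 19.3 in white adipose tissue, 12.7 in brown adipose tissue, 17.8 in heart, 0.530 in spleen, 4.99 in kidney and 25.2 in lung. Fasting levels of Depp1 were 242 CPM in muscle, 44.7 in liver, 132 in white adipose tissue, 442 in brown adipose tissue, 97.1 in heart, 1.69 in spleen, 41.05 in kidney and 49.9 in lung. The fasting values of 7 tissues, 41.05 CPM or more, lay above all 8 fed values, which reached 33.2 CPM, and the ranges overlapped only through spleen, where the gene was near 1 CPM. The highest fed level was in liver and the highest fasting level in brown adipose tissue.

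In muscle, Depp1 was 63.9 times as high when fasting as when fed, which is 6.00 (95% counting interval 5.70 to 6.32) on the log2 scale, from 91 counts to 7497. In brown adipose tissue the fold was 34.8, and Depp1 ranked 2 among the 9562 genes with at least 10 CPM there, after ranking 1 of 7768 in muscle. Kidney (3.04), white adipose tissue (2.77), heart (2.44) and spleen (1.65) were past the fold as well. In white adipose tissue a log2 value of 2.77 gave rank 343 of 11061 genes with at least 10 CPM, 7.86% of which were past the fold upward. Lung was at 0.99, and liver, where the fed level was 33.2 CPM, was lowest at 0.43. The spleen value rests on 12 and 47 counts and was 0.81, no longer past the fold, with 1 CPM added in place of 0.01. The lung value was 1.06 with TMM factors or with DESeq2 size factors.

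Fed levels of Ddit4 were 4.65 CPM in muscle, 3.34 in liver, 24.3 in white adipose tissue, 10.9 in brown adipose tissue, 23.7 in heart, 44.99 in spleen, 10.7 in kidney and 12.7 in lung. Fasting levels of Ddit4 were 164 CPM in muscle, 9.74 in liver, 162 in white adipose tissue, 145 in brown adipose tissue, 71.8 in heart, 157 in spleen, 26.7 in kidney and 69.4 in lung. Ddit4 was past the fold in all 8 tissues, the only one of the 10 genes that was. Its log2 fold changes were 5.13 in muscle, 1.54 in liver, 2.73 in white adipose tissue, 3.73 in brown adipose tissue, 1.60 in heart, 1.81 in spleen, 1.32 in kidney and 2.45 in lung. Muscle, where the fed level was among the lowest at 4.65 CPM, reached the highest fasting level of all tissues, 164 CPM, close to the 162 CPM of white adipose tissue and the 157 CPM of spleen. Liver was lowest in both states. In spleen, where 8 of the 10 genes were not past the fold, Ddit4 ranked 9 of 10923 genes.

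**Figure D3:**
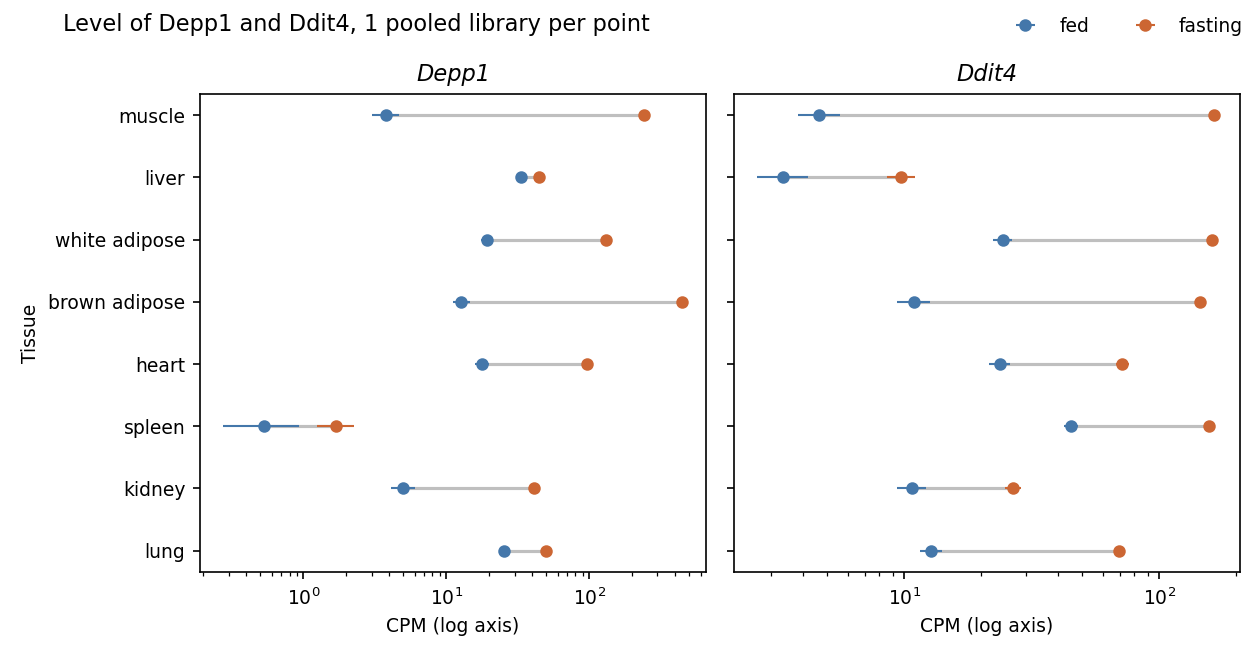
Level of Depp1 (left) and Ddit4 (right) in CPM on a log axis in the fed and the fasting library of each tissue, 1 pooled library per point, with 95% exact binomial intervals for counting error. The widest gaps are in muscle, from 3.78 to 242 CPM for Depp1 and from 4.65 to 164 CPM for Ddit4.

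Sestrins are stress-induced proteins that restrain TORC1, as leucine sensors and through AMPK. Sesn1 and Sesn3 went opposite ways in 6 of the 8 tissues. Sesn1 lies on the forward strand at chr10:41809935-41908424 and has 2 RefSeq start sites in the promoter table. The first, at chr10:41810324-41810623, held the only FoxO core found among the 10 genes, read as TGTTTAC and starting at base 23 of the transcribed part.
Sesn1: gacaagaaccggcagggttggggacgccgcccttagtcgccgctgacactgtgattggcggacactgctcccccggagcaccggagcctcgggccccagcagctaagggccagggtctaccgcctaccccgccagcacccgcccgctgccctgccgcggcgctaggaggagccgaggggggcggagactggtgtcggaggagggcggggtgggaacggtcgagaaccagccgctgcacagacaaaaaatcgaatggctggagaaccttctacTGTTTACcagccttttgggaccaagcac

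Fed levels of Sesn1 were 20.3 CPM in muscle, 17.2 in liver, 57.4 in white adipose tissue, 22.8 in brown adipose tissue, 143 in heart, 122 in spleen, 23.5 in kidney and 52.2 in lung. Fasting levels of Sesn1 were 159 CPM in muscle, 13.2 in liver, 85.02 in white adipose tissue, 41.6 in brown adipose tissue, 314 in heart, 199.8 in spleen, 28.98 in kidney and 83.3 in lung. Heart and spleen were highest in the fed state, and the fasting muscle library joined them. The log2 fold change was 2.97 in muscle, a 7.85-fold difference, and 1.14 in heart, the other tissue past the fold. Brown adipose tissue (0.87), spleen (0.72), lung (0.67), white adipose tissue (0.57) and kidney (0.30) were higher by less, and liver was lower at -0.38.

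Sesn3, at chr9:14275067-14333101 on the forward strand, was the only gene of the 10 that was lower in the fasting library of most tissues. Fed levels of Sesn3 were 31.9 CPM in muscle, 71.1 in liver, 89.9 in white adipose tissue, 51.00 in brown adipose tissue, 43.04 in heart, 310.4 in spleen, 90.2 in kidney and 96.1 in lung. Fasting levels of Sesn3 were 23.98 CPM in muscle, 44.8 in liver, 60.9 in white adipose tissue, 33.98 in brown adipose tissue, 35.1 in heart, 291 in spleen, 93.5 in kidney and 62.7 in lung. The lowest log2 values were in liver (-0.67), lung (-0.62), brown adipose tissue (-0.59) and white adipose tissue (-0.56), all short of the fold. Kidney, at 0.05 (95% counting interval -0.03 to 0.14), was within counting error. Spleen held the highest level in both states.

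Per gene length, Sesn1 was the leading sestrin in 9 of 16 libraries, Sesn2, which is not one of the 10 genes, in 6, and Sesn3 in 1. On CPM, where gene length is not taken into account, Sesn3 led in 10 libraries, Sesn1 in 4 and Sesn2 in 2. Per gene length, muscle and heart were Sesn1 tissues. Sesn1 made up 63.6% of the summed sestrin level in fed and 93.6% in fasting muscle, and 89.1% and 95.97% in heart. The muscle sum was 29.9 TPM in the fed and 163 TPM in the fasting library. Kidney and brown adipose tissue were led by Sesn2 in both states, at 54.3% and 53.03% when fed. Liver, with the lowest sums, was led by Sesn3 in the fed (41.2%) and by Sesn2 in the fasting library (40.2%).

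Among the growth arrest genes, Cdkn1a and Gadd45g were higher past the fold in 6 tissues each and Gadd45b in 4, with different tissues in the lead. Cdkn1a, at chr17:29090976-29100727 on the forward strand, encodes p21, an inhibitor of cyclin-dependent kinases and the best known target of p53. Of its 2 RefSeq start sites, the upstream one, at chr17:29090729-29091028, had a pair of p53 half-site cores in the letters CATGNNNNNNCATG, from 48 bases before the start. This pattern was searched only after the sequence was seen, and occurred in 0.712% of all promoters and in no other promoter of the 10 genes.
Cdkn1a: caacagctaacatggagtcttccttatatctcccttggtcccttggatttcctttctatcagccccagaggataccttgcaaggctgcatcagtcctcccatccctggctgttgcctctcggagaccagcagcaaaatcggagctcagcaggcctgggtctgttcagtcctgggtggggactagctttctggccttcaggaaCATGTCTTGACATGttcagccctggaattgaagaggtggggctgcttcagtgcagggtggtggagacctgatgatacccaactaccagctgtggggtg

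Fed levels of Cdkn1a were 4.86 CPM in muscle, 3.82 in liver, 17.3 in white adipose tissue, 34.8 in brown adipose tissue, 8.60 in heart, 3.71 in spleen, 2.76 in kidney and 17.2 in lung. Fasting levels of Cdkn1a were 13.6 CPM in muscle, 8.13 in liver, 27.6 in white adipose tissue, 133 in brown adipose tissue, 30.1 in heart, 3.56 in spleen, 6.09 in kidney and 71.1 in lung. Brown adipose tissue had the highest level in both states, and lung came second when fasting. The log2 fold changes of Cdkn1a were 1.48 in muscle, 1.09 in liver, 0.68 in white adipose tissue, 1.93 in brown adipose tissue, 1.81 in heart, -0.06 in spleen, 1.14 in kidney and 2.04 in lung. Spleen was within counting error (-0.49 to 0.38). With 1 CPM added, the liver and kidney values, which rest on 62 to 203 counts, were 0.92 and 0.91 and no longer past the fold.

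Gadd45 proteins bind p21, PCNA and the kinase MAP3K4 and respond to stress and growth arrest. The promoters of Gadd45b and Gadd45g each held the E-box CACGTG, 185 and 142 bases before the start. Gadd45b lies at chr10:80930073-80932204 on the forward strand. Fed levels of Gadd45b were 15.7 CPM in muscle, 0.391 in liver, 5.67 in white adipose tissue, 2.29 in brown adipose tissue, 3.43 in heart, 21.3 in spleen, 2.18 in kidney and 42.9 in lung. Fasting levels of Gadd45b were 14.2 CPM in muscle, 7.45 in liver, 11.7 in white adipose tissue, 15.4 in brown adipose tissue, 14.9 in heart, 20.2 in spleen, 3.69 in kidney and 62.5 in lung. Its largest fold change was in liver, from 9 counts when fed to 186 when fasting, at 4.22 on the log2 scale (95% counting interval 3.30 to 5.40), or 2.60 with 1 CPM added. Brown adipose tissue (2.74), heart (2.12) and white adipose tissue (1.04) were past the fold too, the last not with TMM factors (0.93), DESeq2 size factors (0.92) or 1 CPM added (0.93). Muscle (-0.14) and spleen (-0.07) were within counting error. Lung, with the highest level in both states, was at 0.54.

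Gadd45g lies at chr13:51846678-51848468 on the forward strand. Fed levels of Gadd45g were 36.8 CPM in muscle, 26.5 in liver, 33.7 in white adipose tissue, 23.7 in brown adipose tissue, 5.11 in heart, 4.11 in spleen, 21.9 in kidney and 10.3 in lung. Fasting levels of Gadd45g were 121 CPM in muscle, 34.7 in liver, 69.1 in white adipose tissue, 124 in brown adipose tissue, 13.9 in heart, 4.38 in spleen, 47.7 in kidney and 21.8 in lung. Muscle was highest when fed, and muscle and brown adipose tissue were highest when fasting. The log2 fold changes of Gadd45g were 1.71 in muscle, 0.39 in liver, 1.03 in white adipose tissue, 2.39 in brown adipose tissue, 1.44 in heart, 0.09 in spleen, 1.12 in kidney and 1.07 in lung. Liver, where Gadd45b had its largest fold change, was not past the fold for Gadd45g, while muscle was past the fold for Gadd45g and not for Gadd45b. The white adipose value was 0.93 with TMM factors and 0.92 with DESeq2 size factors, and the spleen value was within counting error (-0.31 to 0.50). Per gene length, Gadd45g was the leading gene of the family in 11 of 16 libraries, Gadd45b in 4 and Gadd45a, which is not one of the 10 genes, in 1. Gadd45b led in spleen and lung and Gadd45a in the fed heart.

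**Figure D4:**
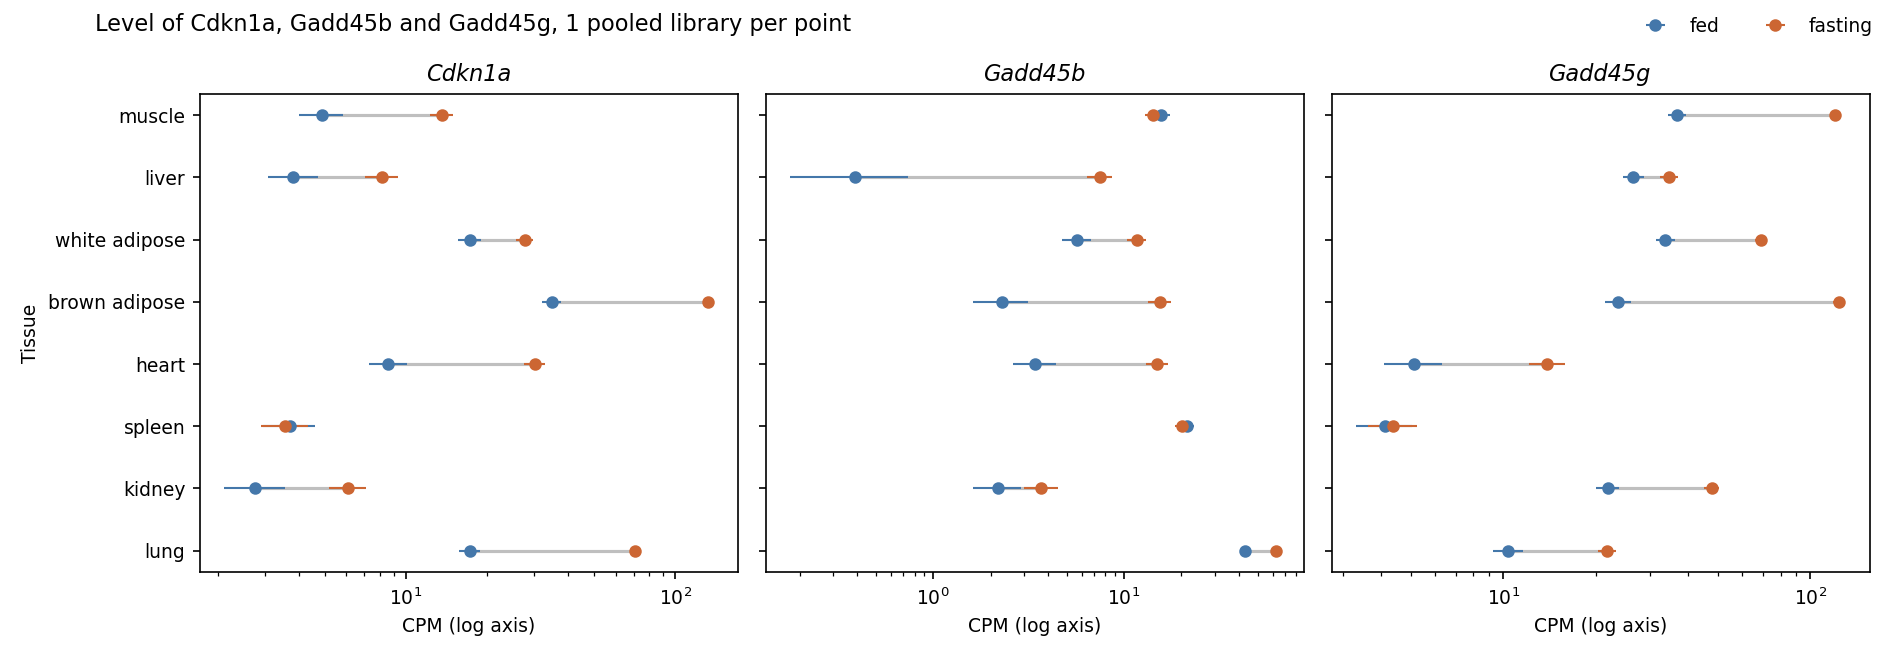
Level of Cdkn1a, Gadd45b and Gadd45g in CPM on a log axis in the fed and the fasting library of each tissue, 1 pooled library per point, with 95% exact binomial intervals for counting error. The widest gap is Gadd45b in liver, from 0.391 to 7.45 CPM, and in spleen the points of all 3 genes nearly coincide.

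The order of tissues, taken by the mean of the fed and the fasting library, differed between the genes. Depp1 was highest in brown adipose tissue and lowest in spleen, and Ddit4 highest in spleen and lowest in liver. Foxo1 and Sesn3 were highest in spleen, Foxo3 and Gadd45b in lung, Foxo4 and Gadd45g in muscle, Sesn1 in heart and Cdkn1a in brown adipose tissue. For Depp1 and Ddit4 only the lowest tissue stood apart from its upper neighbour, which was kidney for both, in the ranges spanned by their fed and fasting libraries, and all other neighbours overlapped. For Cdkn1a no neighbours stood apart. For Gadd45b, lung stood apart from spleen and spleen from muscle, and for Sesn3, spleen from kidney and heart from muscle. For Foxo1, spleen stood apart from white adipose tissue, brown adipose tissue from lung and lung from liver, and for Foxo3 only white adipose tissue from liver. For Sesn1, lung stood apart from brown adipose tissue and kidney from liver, and for Gadd45g, liver from lung and heart from spleen. For Foxo4, the gaps were between brown and white adipose tissue, white adipose tissue and lung, heart and spleen, and spleen and kidney. Fed levels of Depp1 spanned a 62.6-fold range across tissues and fasting levels a 262-fold range. For Foxo1 the range was wider when fed (10.1-fold) than when fasting (4.36-fold).

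Reads of neighbouring genes could enter some counts, since the strand setting of the counting is not given in the sources used here. Rassf4 overlaps Depp1 on the opposite strand without sharing exon bases, and had 7.39 CPM in the fed and 22.9 CPM in the fasting library of muscle, and 18.7 CPM in the fed and 66.5 CPM in the fasting library of brown adipose tissue. In spleen Rassf4 had 119 CPM in the fed and 118 CPM in the fasting library, beside the 0.530 and 1.69 CPM of Depp1. Gm38034 lies within Foxo1 on the same strand without shared exon bases and had 3.12 CPM in the fed and 17.3 CPM in the fasting library of muscle, and 9930024M15Rik lies so in Sesn1 and had 2.62 CPM in the fed and 9.76 CPM in the fasting library there. Gm20402 and AC167363.2 share 674 and 273 exon bases with Foxo1 and Cdkn1a on the opposite strand, but stayed at or under 0.309 and 0.393 CPM. Whether the overlapping genes contributed to the values of the 10 genes was not tested.

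Each tissue held the highest summed level of its own cell type markers in 8 of 8 lists checked. Markers of other cells differed in some pairs of libraries. In spleen, 6 of 6 erythroid markers were higher in the fasting library (sum 3825 to 9264 CPM, highest Hbb-bs), and 9 of 9 pancreatic acinar markers were lower (573 to 11.8 CPM, highest Pnlip). In white adipose tissue 4 of 5 B cell markers were lower (346 to 82.7 CPM, mostly Ighm, from 338 to 76.3 CPM). Of the 6 lung epithelium markers in that tissue, 4 were higher, 1 was lower and 1 had 0 counts. Their sum went from 3.52 to 129 CPM, nearly all of it through Foxj1 alone (1.76 to 126 CPM). Of 6 epididymis and testis markers there, 4 were lower and 2 higher (sum 9.83 to 1.31 CPM, highest Lcn5). In kidney, 5 of 9 pancreatic acinar markers were lower and 2 higher (58.4 to 23.1 CPM, mostly Cela1). In lung 6 of 6 T cell markers (80.6 to 22.9 CPM, highest Lck), 5 of 5 B cell markers (343 to 177 CPM, highest Ighm) and 6 of 6 cardiomyocyte markers (1094 to 556 CPM, highest Myh6) were lower, and in brown adipose tissue 6 of 6 skeletal muscle markers (2388 to 1097 CPM, highest Myh4). In liver 6 of 6 adipocyte markers were higher (37.2 to 144 CPM, mostly Cidec), and 8 of 9 pancreatic acinar markers (114 to 245 CPM), with Cela1 at 37.5 and 34.7 CPM. In heart 6 of 6 hepatocyte markers were higher (29.9 to 93.7 CPM, highest Alb), and of the 6 adipocyte markers 1 was higher, Fabp4 (370 to 831 CPM), 4 were lower and 1 had 0 counts. The part of these shifts in the values of the 10 genes was not tested.

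To compare fasting with fed across tissues, all 16 libraries were fitted in edgeR's quasi-likelihood model with tissue as a block. The 8 tissues served as the repeats, so the errors measure the spread between tissues of the same pools of mice and not between mice. For the 10 genes the log2 fold change ± SE (8 pairs of libraries) was 2.83 ± 0.62 for Depp1, 2.53 ± 0.40 for Ddit4, 1.35 ± 0.22 for Cdkn1a, 1.22 ± 0.21 for Gadd45g, 1.21 ± 0.41 for Gadd45b, 0.88 ± 0.16 for Foxo3, 0.87 ± 0.29 for Sesn1, 0.44 ± 0.20 for Foxo1, 0.15 ± 0.09 for Foxo4 and -0.36 ± 0.09 for Sesn3. The standard error was widest for Depp1, whose fold changes ranged most across tissues, and narrowest for Foxo4 and Sesn3. Of the 17296 genes fitted, 2.31% (400) were called higher and 2.08% (359) lower in fasting at a Benjamini-Hochberg adjusted p under 0.05. With library totals alone 308 were called higher and 639 lower. At an unadjusted p under 0.05 in edgeR the shares of all genes were 10.6% higher and 13.1% lower, and by DESeq2's adjusted p 5.21% of 16290 genes were higher and 6.16% lower. In edgeR, 5 of the 10 genes were among those called higher. That count was 2 without brown adipose tissue or without heart, 3 without muscle, 4 or 5 without any other single tissue, 1 without both adipose tissues and 7 with DESeq2. In the lower direction, 1 of the 10 genes was counted with DESeq2, with library totals alone, without spleen and without kidney. Because the 10 genes were chosen on these fold changes, none of these counts is a test of them and nothing is read from them. Without muscle the value for Foxo1 was 0.23.

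In the same fit, 119 other genes of these pathways, 11 of them in more than 1 of the lists written with earlier results of these data known, were tested. Among 27 fitted targets of FoxO other than the 10 genes, 10 rose, 0 fell and 17 were not called in edgeR (18 higher genes and 1 lower had an unadjusted p under 0.05, and DESeq2 called 15 higher and 0 lower), and the list's median log2 fold change was 0.54 beside -0.01 over all genes fitted. The shares of all genes given above for each of these calls are the background of this and the following lists. The largest rises in edgeR were in Pdk4, the kinase that spares glucose by inhibiting pyruvate dehydrogenase, at 3.05 ± 0.44 (adjusted p = 0.0094), and in Angptl4, an inhibitor of lipoprotein lipase, at 2.25 ± 0.40 (adjusted p = 0.0200). The others that rose were Txnip, Pck1, Bnip3, Gabarapl1, Klf15, Irs2, Map1lc3b and Insr, and Gabarapl1, Map1lc3b and Bnip3 serve autophagy. At the other end, Tnfsf10 was at -0.38 ± 0.13 (adjusted p = 0.113) and Sod2 at -0.17 ± 0.10 (adjusted p = 0.342) in edgeR, neither called. Pdk4, Txnip, Bnip3, Klf15 and Insr were called in 8 of 8 fits that left out a tissue. Angptl4 was not called without muscle or without lung. Map1lc3b was not called without heart, Gabarapl1 was called in 2 of those 8 fits, and Pck1 and Irs2 in 1 each. The count of rises was 6 without heart or without lung and 5 without both adipose tissues.

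Among the targets that reached 1 CPM in a tissue, those past the fold upward were 10 of 26 in muscle (background 2.99%), 10 of 26 in brown adipose tissue (3.84%), 11 of 27 in heart (3.48%) and 7 of 28 in liver (3.64%). They were 5 of 28 in kidney (1.86%), 5 of 26 in lung (1.35%) and 4 of 26 in spleen (1.39%). In white adipose tissue, with its upward background of 12.4%, they were 5 of 28. Those downward were 1 in lung and 0 in the other tissues. The muscle atrophy ligase Fbxo32 was not called in edgeR across tissues, at 0.92 ± 0.25 (adjusted p = 0.0638), and had log2 fold changes from 0.09 in liver to 2.78 in muscle.

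Upstream of FoxO, 4 of 22 genes rose, 0 fell and 18 were not called in edgeR (6 higher genes and 1 lower had an unadjusted p under 0.05, and DESeq2 called 4 higher and 0 lower), with a list median of 0.06. The 2 largest rises were in Irs2, an adaptor of the insulin receptor, at 0.90 ± 0.22 (adjusted p = 0.0472), and Sgk1, a kinase related to Akt, at 0.83 ± 0.19 (adjusted p = 0.0383), followed by Igf1r at 0.59 ± 0.14 (adjusted p = 0.0483) and the insulin receptor Insr at 0.45 ± 0.07 (adjusted p = 0.0154) in edgeR. Insr, Irs2 and Sgk1 were higher in the fasting library of 8 of 8 tissues. At the low end stood Foxo6, at -1.12 ± 0.44 (adjusted p = 0.159) and never above 6.40 CPM, and Skp2, at -0.29 ± 0.12 (adjusted p = 0.397), neither called in edgeR. Insr was called in 8 of 8 fits that left out a tissue, and Irs2, Sgk1 and Igf1r in 1 each. The number of rises was 0 without both adipose tissues, 3 without spleen, 2 without kidney and 1 without any other single tissue.

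Of 23 other TORC1 brakes and AMPK subunits, 1 rose and 0 fell in edgeR (3 higher genes and 1 lower had an unadjusted p under 0.05, and DESeq2 called 3 higher and 1 lower), with a list median of 0.03. The one called was Sesn2, at 0.65 ± 0.16 (adjusted p = 0.0495), higher in 7 of 8 tissues and at -0.61 in heart. It was not called with library totals alone or without both adipose tissues, and was called in 1 of 8 fits that left out a tissue, that without heart. Castor1, an arginine sensor, was at 0.62 ± 0.18 (adjusted p = 0.0732), Prkag3, the AMPK subunit of white muscle fibres, at -1.07 ± 0.34 (adjusted p = 0.0987) and Tbc1d7, a subunit of the TSC complex, at -0.26 ± 0.12 (adjusted p = 0.233), all uncalled in edgeR. Levels of Prkag3 ran from 0.07 to 204 CPM over the libraries, and its lowest log2 fold change, -2.69, was in white adipose tissue. Among 18 other p53 targets Sesn2 was again the 1 that rose, and 0 fell in edgeR (3 higher genes and 3 lower had an unadjusted p under 0.05, and DESeq2 called 2 higher and 2 lower). Without spleen 1 fell. Trp53inp1 was at 1.10 ± 0.29 (adjusted p = 0.0586), Plk2 at -0.66 ± 0.17 (adjusted p = 0.0532) and Zmat3 at -0.29 ± 0.10 (adjusted p = 0.111) in edgeR, none of them called, and the list's median was -0.01.

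Among 17 GADD45 partners and cell cycle genes, with a median of 0.00, 0 rose in edgeR (3 higher genes and 5 lower had an unadjusted p under 0.05, and DESeq2 called 1 higher and 1 lower). In edgeR 1 fell, the cyclin Ccnd2 at -0.51 ± 0.09 (adjusted p = 0.0169), which was lower in 8 of 8 tissues and was not called without heart or without both adipose tissues. Rbl2 was at 0.46 ± 0.15 (adjusted p = 0.0950), Ccnd3 at 0.36 ± 0.12 (adjusted p = 0.107) and Ccne1 at -0.59 ± 0.23 (adjusted p = 0.154) in edgeR, uncalled.

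Genes of the glucocorticoid response had the highest median of the lists, 1.30. Of 11 genes, 8 rose, 0 fell and 3 were not called in edgeR (9 higher genes and 1 lower had an unadjusted p under 0.05, and DESeq2 called 9 higher and 1 lower). Fkbp5, a chaperone partner that damps the receptor, was at 2.03 ± 0.30 (adjusted p = 0.0110) and Zbtb16 at 1.83 ± 0.26 (adjusted p = 0.0084), and Tsc22d3, Per1, Klf9, Cebpd, Errfi1 and Sgk1 were the others that rose in edgeR. The receptor gene Nr3c1, at -0.33 ± 0.10 (adjusted p = 0.0877), and Dusp1, at -0.09 ± 0.22 (adjusted p = 0.845), were not called. Fkbp5, Zbtb16, Tsc22d3 and Per1 were called in 8 of 8 fits that left out a tissue, Klf9 in 7, Cebpd in 5, Errfi1 in 4 and Sgk1 in 1. The number of rises was 4 without both adipose tissues or without brown adipose tissue, 5 without heart, and 6 to 8 without any other single tissue. Of 12 immediate early genes, with a median of -0.26, 0 rose in edgeR (1 higher gene and 3 lower had an unadjusted p under 0.05, and DESeq2 called 0 higher and 3 lower). In edgeR 1 fell, Fos at -0.59 ± 0.13 (adjusted p = 0.0372), which was not called without muscle, brown adipose tissue, spleen, kidney, lung or both adipose tissues, while Egr1 at -0.92 ± 0.25 (adjusted p = 0.0638), Zfp36 at 0.55 ± 0.19 (adjusted p = 0.114) and Jun at 0.19 ± 0.17 (adjusted p = 0.506) were not called in edgeR.

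**Figure D5:**
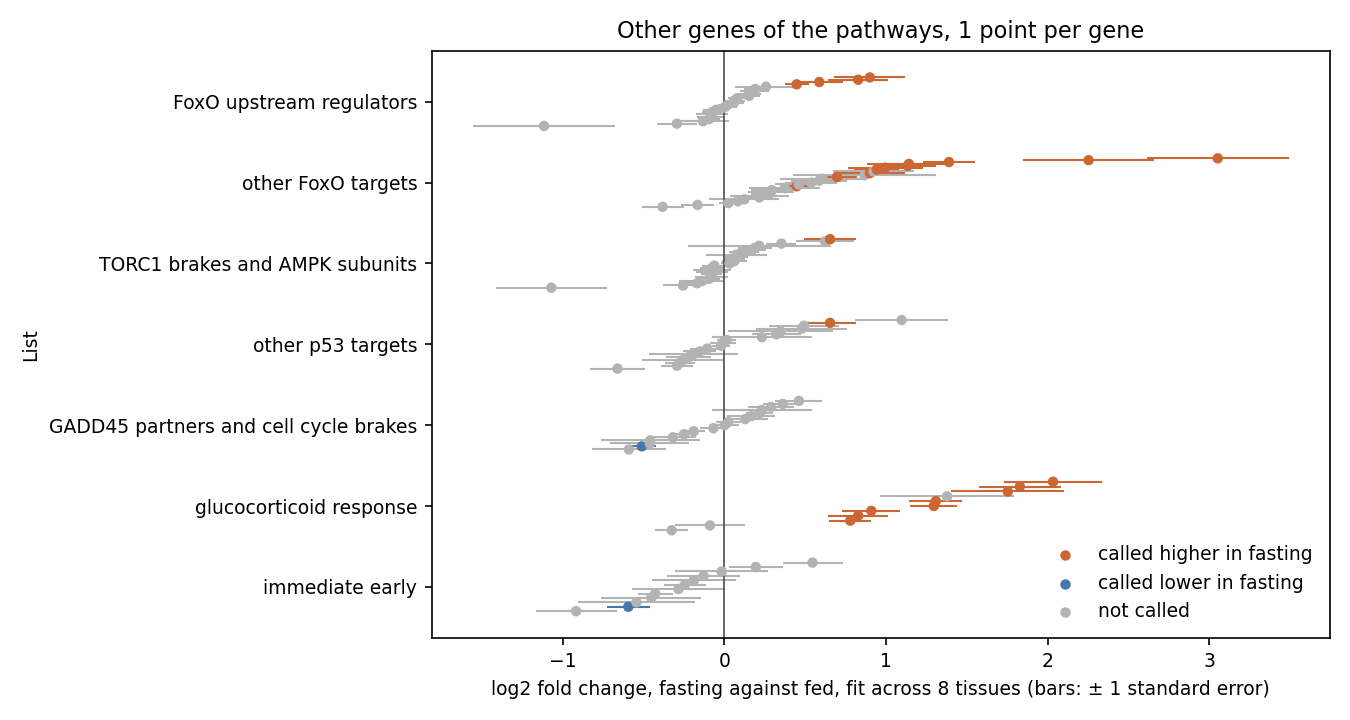
Log2 fold change of fasting against fed in the fit across 8 tissues for the other genes of each list, 1 point per gene with bars of 1 standard error, coloured by call at an adjusted p under 0.05 (edgeR). The FoxO targets (10 of 27 higher) and the glucocorticoid list (8 of 11 higher) hold most of the called genes, some of which are in more than 1 list.

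Genes with the pattern most like each of 6 of the genes were taken by Pearson correlation of log2 fold changes (CPM + 1) over the 8 tissues, which share the 2 pools of mice, among 10455 other genes (10456 for Depp1) with at least 1 CPM in all libraries and at least 10 CPM in one of them. Correlation takes no account of size, and several matches had small differences. The matches are the highest of 10455 or 10456 correlations over only 8 tissues. How high the best match of unrelated genes would be was not tested, so the matches are a description only. For Sesn1 the closest were Epg5, Fbxo32 and Pi4k2a (r = 0.98 each), of which Fbxo32 ranged from 0.08 to 2.78. For Cdkn1a they were Map3k6 (r = 0.97, from 0.73 to 2.44, highest in lung), Gm37531 (0.94) and Fxr2 (0.92). For Foxo1 they were Atp6v1h, a subunit of the lysosomal proton pump (0.98, up to 0.93 in muscle), Ing3 and Sec24a (0.97 each). For Depp1 they were Exosc3, Tbc1d15 and Whamm (0.97 each). Exosc3 ranged only from -0.21 to 0.19, while Tbc1d15 reached 1.11 and Whamm 1.16 in muscle. For Ddit4 they were Orc6, Sec23ip (0.97 each) and Sh3gl1 (0.96), and for Foxo3 Fam124a, Hnrnpul2 (0.97 each) and Cul1 (0.96), none past 0.70. Among the 10 genes themselves the closest patterns were those of Depp1 and Foxo3 (r = 0.92, 8 tissues) and Foxo3 and Gadd45g (0.91). The lowest r was -0.51, for Sesn3 and Gadd45b. Because the 10 genes were chosen on these fold changes, nothing is read from the correlations among them.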

How the data were processed

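Tissue of 3 mice per group was pooled, and 16 libraries, 1 per tissue and treatment, were sequenced as paired-end reads of 100 base pairs. Read trimming (fastp 0.23.2), quality checks (FastQC 0.11.8), alignment to the GRCm38 build (HISAT2 2.2.1.0) and counting per gene of GENCODE mouse release 24 (featureCounts of Subread 2.0) were done by the authors. They deposited raw counts, without normalization, and the exon length of each gene as an other value of the table. Whether reads or pairs were counted, and the strand setting, are not given in the sources used here. The 37 mitochondrial genes had 0 counts in the table.

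From the deposited counts, CPM used library totals, fold changes a pseudocount of 0.01 CPM, and backgrounds all genes that reached 1 CPM in either library of a tissue. A gene was past the fold at a log2 value above 1. With 1 library per group no test within a tissue was made. TPM used the deposited lengths. Across tissues, edgeR 4.0.16 (R 4.3.3) fitted a quasi-likelihood model of treatment and tissue to 17296 genes kept by filterByExpr, with TMM scaling and 7 residual degrees of freedom, calling at a Benjamini-Hochberg adjusted p under 0.05. When tested on simulated counts of these genes, it found 190 of 200 altered genes and made 9 false calls. The simulation gave each altered gene the same fold in every tissue, gave all genes the same dispersion and drew the libraries independently. It therefore does not show how often calls are right where folds differ between tissues or where tissues share pools of mice. The tissues of a treatment came from the same pool of mice, so the p-values of the fit measure the spread between tissues and not between mice.

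The 10 genes, the lists of other genes and the marker lists were chosen with earlier results of these data known. From each list the text names the 2 highest and 2 lowest fold changes of the fit, from each marker list its highest gene where it is discussed, and the 3 genes most like 6 of the 10. Insr, Igf1r, Fbxo32 and the further called genes were named after their values were seen. Promoters came from RefSeq (GRCm38.p6), and 3 of the searched patterns were added after the sequences were seen. Alternatives were a pseudocount of 1 CPM, TMM factors, DESeq2 1.42.0 size factors, totals without the 10 highest genes, a fold of 0.5, filters of 1 and 10 CPM, DESeq2's Wald test, library totals in edgeR, no filter, no tissue block, and leaving out each tissue or both adipose tissues. Other steps used Python 3.11.15, pandas 2.3.3, numpy 2.4.6, scipy 1.17.1 and matplotlib 3.10.9.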

Additional observations from a re-analysis of the deposited data

How the results depend on the processing

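No pair of a gene and a tissue among the 10 genes changed sign under a pseudocount of 1 CPM, TMM factors, DESeq2 size factors or totals without the 10 highest genes, and the values that crossed the fold are given above. TMM and DESeq2 factors moved the fold changes of all genes by 0.12 in liver, and by -0.11 and -0.12 in white adipose tissue. With a log2 fold of 0.5, 48 pairs were higher and 5 lower past the fold. Among genes with at least 10 CPM, the background higher in fasting was 7.86% in white adipose tissue, 2.46% in brown adipose tissue, 2.08% in heart, 0.613% in spleen and 1.05% in kidney, and that lower in fasting was 2.95% in muscle, 3.65% in brown adipose tissue, 1.7% in heart, 0.339% in spleen, 0.752% in kidney and 1.36% in lung. By CPM, Foxo1 was the highest FoxO gene in 5 libraries and Foxo4 in 1. Across tissues, DESeq2 called 848 genes higher and 1004 lower, and library totals alone 308 higher and 639 lower. Without both adipose tissues edgeR called 96 higher and 35 lower, and 5 of the FoxO targets higher. With single tissues left out it called 104 to 340 genes higher and 52 to 381 lower, and 6 to 9 of the FoxO targets higher, with fewer pairs of libraries in each fit. The counts of higher genes were lowest without brown adipose tissue (104), heart (115), lung (141) and muscle (144). Without the tissue block, edgeR called 0 genes higher, 1 lower and 0 FoxO targets higher, while 91 higher and 42 lower genes and 3 of those targets had an unadjusted p under 0.05. That fit leaves the differences between tissues in its error. Depth limits the values under 1 CPM, Depp1 in fed spleen and Gadd45b in fed liver.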
